A study of Mus musculus with 8 samples.

Results

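Interferon response genes are the genes that cells switch on when interferons bind their receptors. A list of 44 mouse genes of this kind, induced by type I interferons, by interferon gamma or by both, was looked up by symbol in a gene expression table of 18560 genes. Of these, 42 were found and all 42 passed the filter on low counts, while Mx1 and Mx2 were not analysed here. The table held 8 RNA sequencing libraries labelled dorsal root ganglia, the ganglia that hold the cell bodies of sensory neurons. One group of 4 carried the genotype label WT_P60 and the other group of 4 the label cKO_P60, a conditional deletion of Alyref, an adaptor of mRNA export from the nucleus. The design text states that 4 sequencing batches with separate biological replicates were run. It does not tie libraries to batches, so the batch of each library is not known and its part cannot be told apart. The sources used here give no strain, sex or treatment, and neither the Cre driver nor the cells in which Alyref was deleted.

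Type I interferons act through a receptor of Ifnar1 and Ifnar2, and interferon gamma through Ifngr1 and Ifngr2. Janus kinases then phosphorylate STAT proteins. Stat2 and Irf9 take part in a complex that binds the interferon-stimulated response element (ISRE) in promoters, while the gamma-activated site (GAS) is the element of the interferon gamma response. In nervous tissue these genes are active at a low level without infection, in glia, vessels, immune cells and neurons, and they rise strongly in viral infection and in some forms of inflammation.

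Total estimated counts were 15522915 to 16482614 per library. TPM, a level per transcript length and library total, is used below for levels. Alyref itself lay between 46.3 and 54.9 TPM over the 8 libraries, with a log2 fold change of −0.11 ± 0.0966 (SE; adjusted p = 0.887, edgeR), so the groups are called by their labels. The labels do not say which exons the deletion removes, and reads from other exons do not check it. WT replicate 2 stood apart from the other 7 libraries, with Spearman correlations of 0.944 to 0.967 against 0.990 to 0.996 among the others. The labelled tissue was only partly borne out by its markers. Scn10a, a sodium channel of pain neurons, was at 2.59, 67.02, 17.3 and 4.38 TPM in WT replicates 1 to 4 and at 4.48, 13.4, 1.23 and 8.24 TPM in cKO replicates 1 to 4. Slc6a5, the glycine transporter of spinal inhibitory neurons, was at 152, 60.8, 138 and 144 TPM in WT and 143, 128, 159 and 142 TPM in cKO. Results on interferon genes are therefore given with and without WT replicate 2, and they hold for tissue that also carried transcripts of the spinal cord.

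Promoter motifs are a feature that the choice of members did not use directly, though induction by interferon often runs through them. For 33 of the 42 genes RefSeq start sites on GRCm38.p6 were at hand, and the 250 bases before each start were searched on both strands for the ISRE core, which is GAAA, any 2 bases and GAAA, and for the GAS core TTCNNNGAA. At least 1 ISRE core lay before 17 of the 33 genes (51.5%), against 3.46% of 27025 genes. A GAS core lay before 9 of the 33 (27.3%), against 8.13% of all. In all, 21 had either motif and 5 had both, namely Oas1a, Bst2, Gbp5, Gbp7 and Igtp. A match of letters describes the window and does not show binding.

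The 150 bases before the start are printed for 11 genes, chosen to show each arrangement of the motifs, from 5′ to 3′ on the strand of the gene, with matches in capitals.
Ifit1 (chr19:34640739-34640888, + strand): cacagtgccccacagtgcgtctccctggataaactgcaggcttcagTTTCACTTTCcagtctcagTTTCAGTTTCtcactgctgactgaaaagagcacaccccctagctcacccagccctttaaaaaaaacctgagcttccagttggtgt
Isg15 (chr4:156200819-156200968, - strand): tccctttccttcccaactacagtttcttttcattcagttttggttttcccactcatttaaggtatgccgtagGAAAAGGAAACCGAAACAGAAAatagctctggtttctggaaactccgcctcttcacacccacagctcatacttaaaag
Oas1a (chr5:120907526-120907675, - strand): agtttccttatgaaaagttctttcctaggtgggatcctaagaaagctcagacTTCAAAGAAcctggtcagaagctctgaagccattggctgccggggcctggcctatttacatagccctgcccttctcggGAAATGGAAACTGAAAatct
Gbp2 (chr3:142620513-142620662, + strand): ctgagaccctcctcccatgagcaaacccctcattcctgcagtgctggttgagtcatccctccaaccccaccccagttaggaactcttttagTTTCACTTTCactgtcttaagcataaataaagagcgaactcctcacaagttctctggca
Irgm1 (chr11:48871421-48871570, - strand): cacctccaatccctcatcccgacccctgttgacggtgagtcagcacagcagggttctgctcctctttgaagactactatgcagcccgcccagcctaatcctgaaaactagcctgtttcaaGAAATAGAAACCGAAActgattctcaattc
B2m (chr2:122147537-122147686, + strand): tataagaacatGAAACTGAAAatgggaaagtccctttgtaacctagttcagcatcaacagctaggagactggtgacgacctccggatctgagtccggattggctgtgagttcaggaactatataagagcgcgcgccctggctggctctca
Bst2 (chr8:71537473-71537622, - strand): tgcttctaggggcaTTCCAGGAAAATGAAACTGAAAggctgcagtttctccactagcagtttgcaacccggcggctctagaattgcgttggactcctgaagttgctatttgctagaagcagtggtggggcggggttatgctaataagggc
Igtp (chr11:58199406-58199555, + strand): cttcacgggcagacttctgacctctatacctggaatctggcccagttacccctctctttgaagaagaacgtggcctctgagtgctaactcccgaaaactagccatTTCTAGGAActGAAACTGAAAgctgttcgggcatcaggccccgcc
Gbp7 (chr3:142530186-142530335, + strand): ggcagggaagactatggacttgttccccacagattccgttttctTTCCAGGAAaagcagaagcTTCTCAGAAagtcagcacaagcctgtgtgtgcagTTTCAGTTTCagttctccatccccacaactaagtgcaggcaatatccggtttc
Irf1 (chr11:53769864-53770013, + strand): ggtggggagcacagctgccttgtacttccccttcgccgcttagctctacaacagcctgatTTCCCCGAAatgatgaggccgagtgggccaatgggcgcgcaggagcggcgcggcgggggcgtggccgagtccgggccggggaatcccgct
Ifit3 (chr19:34583379-34583528, + strand): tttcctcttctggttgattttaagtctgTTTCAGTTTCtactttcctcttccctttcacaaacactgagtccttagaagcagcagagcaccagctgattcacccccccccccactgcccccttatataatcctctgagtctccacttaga
Ifit1 carries 2 separate ISRE cores on the opposite strand, so that they read as TTTC runs. Isg15 has 3 overlapping cores in 1 run, and Oas1a and Irgm1 have 2 each. The capitals of Oas1a also mark a GAS core farther from the start. In Bst2 a GAS core overlaps the first of 2 ISRE cores, and in Igtp and Gbp7 GAS and ISRE cores stand apart. Irf1 shows a GAS core and no ISRE core in this window. The window of Ifit3 lies inside the annotated span of the gene, and that of Oas1a overlaps it at the edge. The starts used for Ifit3 and Oas1a are therefore not the outermost ones. The start annotated for Ifit3b, the near-copy of Ifit3, lies so that both windows share a run of 169 bases, offset by 32 bases. Tap1 and Psmb9 point away from each other and their start sites are 226 bases apart, so their promoter windows overlap.

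In all 42 genes the highest level was in WT replicate 2, in TPM (27.3% of all 15098 tested genes) and in edgeR-scaled CPM, a level by library size (37.5%). WT replicate 2 was 1.61 to 6.20 times the median of the other 7 libraries, with a median of 2.78 over the members and 0.892 over all tested genes, and it reached 2 times or more for 35 members (8.96%). On the log2 scale the median of all genes in WT replicate 2 was shifted by −0.16 in TPM and by −0.00028 in CPM against the other libraries, so the members stood above that shift on both scales. The second-highest was WT replicate 3 for all 42 (11.2% of all genes had both places taken in this way). WT replicates 1 and 4 were at the other end, and 1 of them was the lowest library for 33 of the 42 (17.7%). The 4 cKO libraries mostly lay in between. Of the 42 genes, 33 had every cKO level inside the range of the WT levels (39.8%), and for 20 the cKO libraries fell above WT replicates 1 and 4 and below WT replicates 2 and 3 (1.3%). For no member were the groups free of overlap (0.755% of all genes had every cKO level below every WT level, and 0.656% the reverse).

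**Figure D1:**
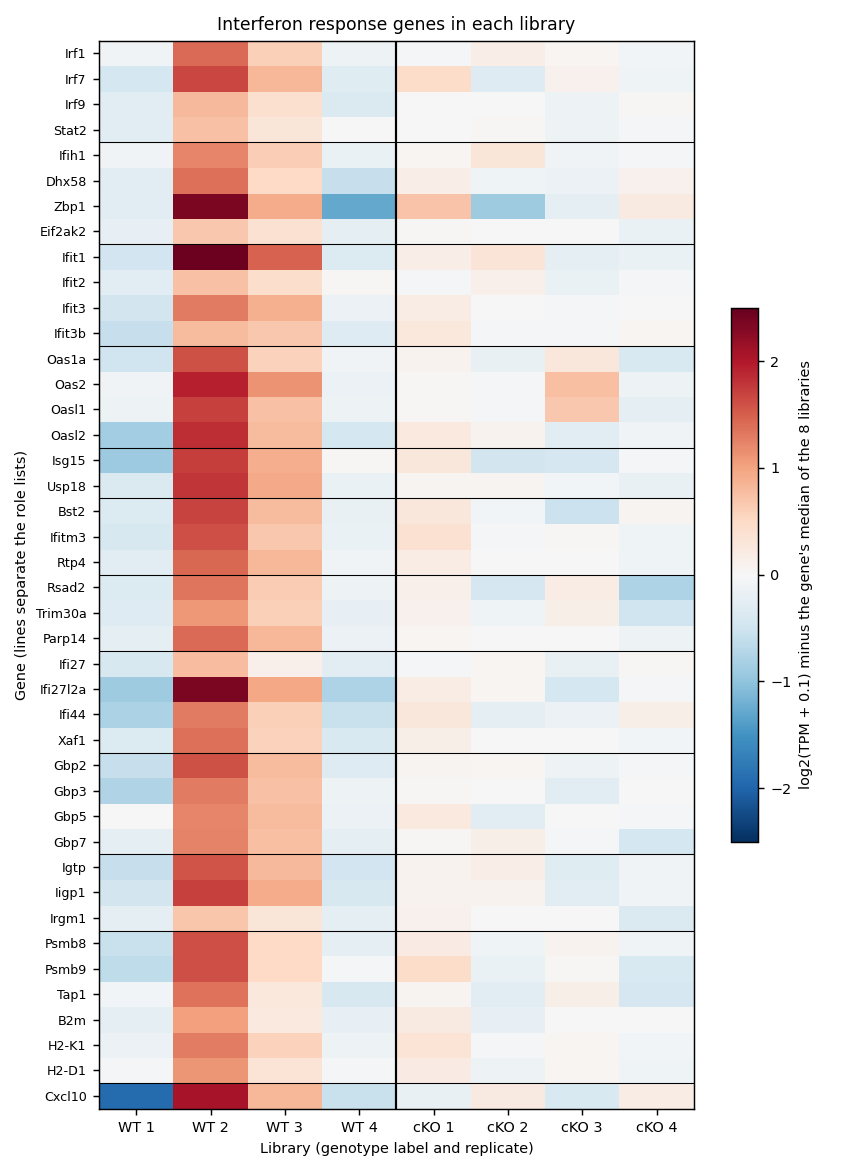
Each row is 1 of the 42 genes and each column 1 library, and the colour gives log2(TPM + 0.1) minus the median of that gene over the 8 libraries, with lines between the role lists. WT replicate 2 is the highest in all 42 rows, WT replicate 3 is second, and WT replicates 1 and 4 are mostly blue, while the cKO columns are mostly near 0.

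The 4 cKO libraries resembled each other more than the WT libraries did. The SD over replicates was larger in WT than in cKO for all 42 genes (82.0% of all tested genes), by a median factor of 5.57 against 2.04 over all tested genes. Without WT replicate 2 the SD of the other 3 WT libraries still exceeded that of the cKO libraries for all 42 members, against 50.7% of all genes. In the same 7 libraries the cKO range lay inside the WT range for 33 members, against 18.8% of all genes. Summed over the 42 genes the level was 1561, 5143, 2815 and 1687 TPM in WT replicates 1 to 4 and 2295, 1872, 1890.0 and 1930.0 TPM in cKO replicates 1 to 4. Among the cKO libraries, replicate 1 was highest for 24 members (20.6% of all genes).

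Over the groups no interferon response gene passed the test between cKO and WT, which does not show that their levels are alike. Of the 42 members 0 had an adjusted p below 0.05 (edgeR quasi-likelihood test with Benjamini-Hochberg adjustment over all 15098 genes), where 0.0% of all genes did, and 0 members had an unadjusted p below 0.05 (1.25% of all genes lower and 0.397% higher in cKO). DESeq2 and limma-voom also called 0 members. The fitted level was lower in cKO for all 42 (51.5% of all genes), with a median log2 fold change of −0.65, where the median of all genes was −0.0048. The edgeR fold compares group means on the count scale. On mean log2 values the median of the members was −0.43 with limma-voom and −0.36 on log2(TPM + 1). Without WT replicate 2 the fitted level was lower for 28 members (49.9% of all genes) and higher for 14, and the median was −0.07. In that fit too, 0 members passed, adjusted (0.00661% of all genes) or unadjusted (1.08% lower and 0.86% higher).

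**Figure D2:**
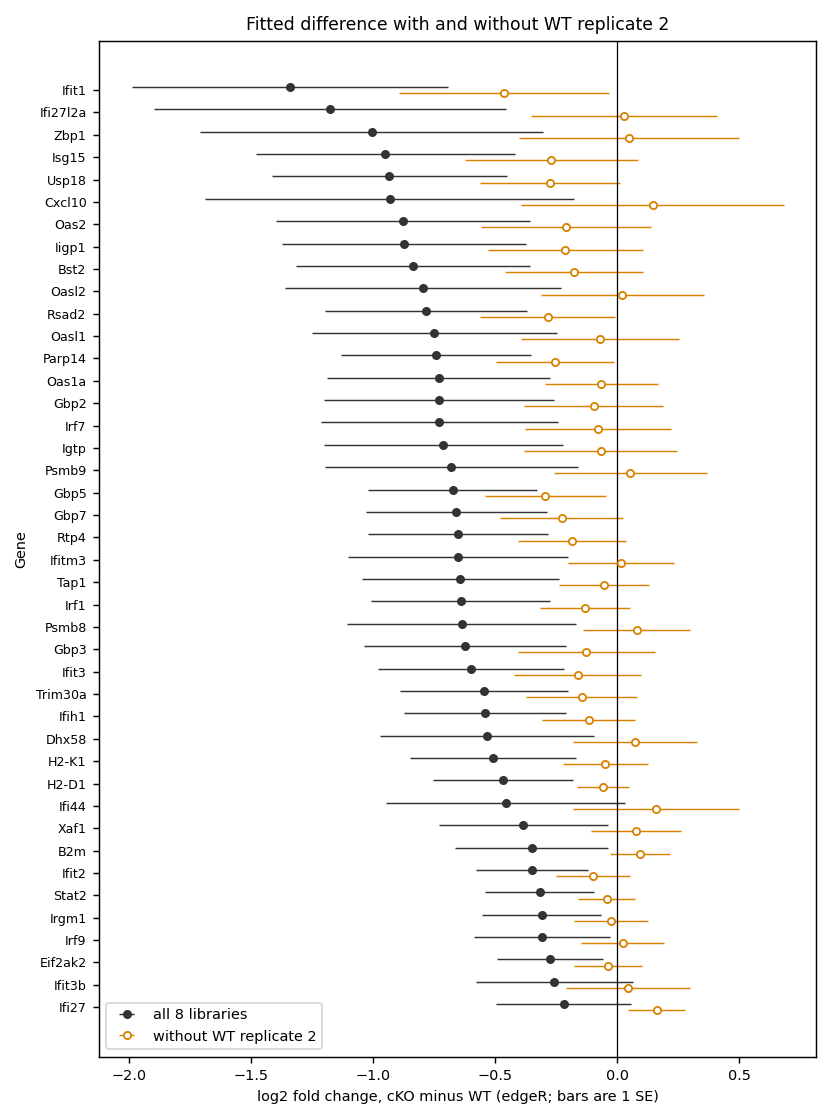
Points give the log2 fold change of each gene, cKO minus WT, with bars of 1 SE, from the edgeR fit of all 8 libraries (filled) and without WT replicate 2 (open). Filled points run from −1.34 for Ifit1 to −0.22 for Ifi27, and open points lie between −0.46 and 0.16.

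Leaving out a low WT library moved the fit the other way. WT replicate 1 or 4 was the lowest library for 33 of the 42 members, so leaving either out tends to raise the WT mean. The members also rose and fell together by library, so the counts below are not separate results for each gene. Without WT replicate 1, 15 of the 42 members had an unadjusted p below 0.05 and were lower in cKO (4.15% of all genes), with a median of −0.87, and none was higher (1.24%). Without WT replicate 4 there were 9 such members (2.73%), with a median of −0.86. No member passed after adjustment in either fit (0.0% of all genes). Without WT replicate 3 the count was 0 (1.06% lower and 0.389% higher) and the median −0.67. In the fits without WT replicate 1, 3 or 4 the fitted level was lower in cKO for all 42 members, against 50.8%, 51.4% and 50.8% of all genes.

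All 4 transcription factors of the response had their lowest level in WT replicate 1 or 4. Irf7, which amplifies type I interferon production, stood at 11.1, 48.6, 26.9 and 12.2 TPM in WT replicates 1 to 4 and at 20.8, 12.1, 16.3 and 14.03 TPM in cKO replicates 1 to 4. Stat2 stood at 13.03, 26.2, 19.4 and 15.9 TPM in WT and 15.8, 16.1, 14.5 and 15.6 TPM in cKO, and its partner Irf9 at 18.9, 40.4, 30.6 and 17.9 TPM in WT and 23.3, 22.7, 20.9 and 23.6 TPM in cKO. WT replicate 2 was 3.46 times the median of the other 7 libraries for Irf7, against 1.66 times for Stat2 and 1.77 times for Irf9. The log2 fold change of Irf7 was −0.73 ± 0.485 (SE) with all libraries and −0.08 ± 0.3 without WT replicate 2, and that of Stat2 was −0.32 ± 0.223 and −0.04 ± 0.117. Adjusted p was 0.887 for every member with all libraries and 0.9997 without WT replicate 2 (edgeR). Irf1, induced above all by interferon gamma, was the lowest of the 4 factors in level, with a mean of 8.13 TPM.

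Sensors of foreign nucleic acid spanned factors of 1.61 to 6.17 in WT replicate 2. Zbp1, a sensor of Z-form nucleic acid that can trigger cell death, stood at 3.29, 20.9, 7.72 and 1.58 TPM in WT and 6.58, 2.11, 3.39 and 4.71 TPM in cKO. Its level in WT replicate 2 was 6.17 times the median of the others, while WT replicate 4 was the lowest library. Eif2ak2, the kinase PKR that halts translation on double-stranded RNA, stood at 9.67, 17.8, 14.5 and 9.4 TPM in WT and 11.4, 11.1, 11.2 and 9.99 TPM in cKO. Its factor of 1.61 was the smallest of the 42 genes. Dhx58, the helicase LGP2, had 2.97, 9.58, 5.2 and 2.4 TPM in WT and 4.09, 3.38, 3.28 and 3.92 TPM in cKO, and its log2 fold change was −0.53 ± 0.439 (SE) with all libraries and 0.07 ± 0.253 without WT replicate 2. Ifih1, the sensor MDA5 of long double-stranded RNA, averaged 4.26 TPM.

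The IFIT family, which bind foreign RNA and block its translation, sit side by side on chromosome 19 and held the member with the largest difference. Ifit1 (Entrez 15957, chromosome 19, 34640889 to 34650009, GRCm38) stood at 8.09, 62.6, 31.9 and 8.99 TPM in WT and 12.8, 14.3, 9.67 and 10.1 TPM in cKO. WT replicates 1 and 4 lay below all 4 cKO libraries, and WT replicates 2 and 3 above them. Group levels were 27.9 ± 25.6 TPM in WT and 11.7 ± 2.2 TPM in cKO (SD, n = 4 each). In edgeR the log2 fold change of Ifit1 was −1.34 ± 0.647 (SE; 95% interval −2.82 to 0.14; adjusted p = 0.887), and −0.46 ± 0.429 without WT replicate 2. Both ISRE cores of Ifit1 are in the stretch shown above.

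Ifit3 stood at 31.8, 107, 80.1 and 39.2 TPM in WT and 49.2, 43.7, 41.8 and 43.2 TPM in cKO, and its neighbour Ifit3b at 11.9, 30.9, 28.3 and 14.1 TPM in WT and 21.2, 17.2, 17.1 and 18.2 TPM in cKO. Of the runs of 50 bases in Ifit3 transcripts, 51.2% also occur in Ifit3b, so their reads were shared between them by estimation and each value is uncertain. Their sum was 43.6, 137.8, 108.4 and 53.3 TPM in WT and 70.4, 60.9, 58.9 and 61.4 TPM in cKO, which places WT replicates 1 and 4 below all cKO libraries again. The log2 fold change was −0.60 ± 0.379 (SE) for Ifit3 and −0.26 ± 0.321 for Ifit3b. Ifit2 averaged 14.7 TPM, with a factor of 1.69 in WT replicate 2.

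The OAS family, whose enzymes make the 2′-5′ oligoadenylates that activate RNase L, had factors of 3.26 to 4.06 in WT replicate 2, with a median of 3.70 against 2.78 over the 42 genes. Oasl2, a relative with ubiquitin-like domains, stood at 12.04, 80.1, 38.3 and 16.3 TPM in WT and 26.4, 23.7, 18.4 and 20.8 TPM in cKO. Oas1a stood at 4.67, 20.4, 9.98 and 6.24 TPM in WT and 7.12, 5.86, 8.15 and 5.08 TPM in cKO, and 57.6% of its runs of 50 bases also occur in Oas1g, so it is uncertain. Oas2 stood at 1.8, 7.67, 4.32 and 1.72 TPM in WT and 1.96, 1.89, 3.33 and 1.76 TPM in cKO. In Oas1a, Oas2 and Oasl1 the highest cKO library was replicate 3, while Oasl2 had its lowest cKO level there. The log2 fold change of Oas2 was −0.88 ± 0.52 (SE) with all libraries and −0.21 ± 0.349 without WT replicate 2.

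Isg15, a ubiquitin-like protein that is joined to other proteins, and Usp18, the protease that removes it and damps the type I receptor, had the same libraries at the top and the bottom. Isg15 stood at 16.2, 101, 57.2 and 31.3 TPM in WT and 37.1, 22.2, 22.9 and 29.9 TPM in cKO, and Usp18 at 5.07, 22.8, 12.7 and 5.77 TPM in WT and 6.83, 6.84, 6.21 and 5.74 TPM in cKO. Both were highest in WT replicate 2, then in WT replicate 3, and lowest in WT replicate 1. Group levels of Usp18 were 11.6 ± 8.24 TPM in WT and 6.41 ± 0.532 TPM in cKO (SD, n = 4 each). The log2 fold changes were −0.95 ± 0.53 and −0.93 ± 0.482 (SE) with all libraries, and −0.27 ± 0.354 and −0.28 ± 0.287 without WT replicate 2.

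Proteins that act at membranes were among the most abundant members. Ifitm3, which blocks the fusion of virus with the cell, stood at 174, 708, 369 and 206 TPM in WT and 299, 226, 236 and 215 TPM in cKO. Bst2, which tethers budding virus to the cell surface, stood at 24.7, 101, 54.3 and 27.6 TPM in WT and 38.2, 29.8, 21.4 and 32.8 TPM in cKO. Rtp4, which helps receptors reach the cell surface, stood at 20.8, 68.5, 45.1 and 23.8 TPM in WT and 28.8, 24.9, 25.5 and 23.5 TPM in cKO. In Bst2, cKO replicate 3 was the lowest library, below both low WT libraries. The log2 fold change of Ifitm3 went from −0.65 ± 0.449 (SE) with all libraries to 0.02 ± 0.217 without WT replicate 2.

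**Figure D3:**
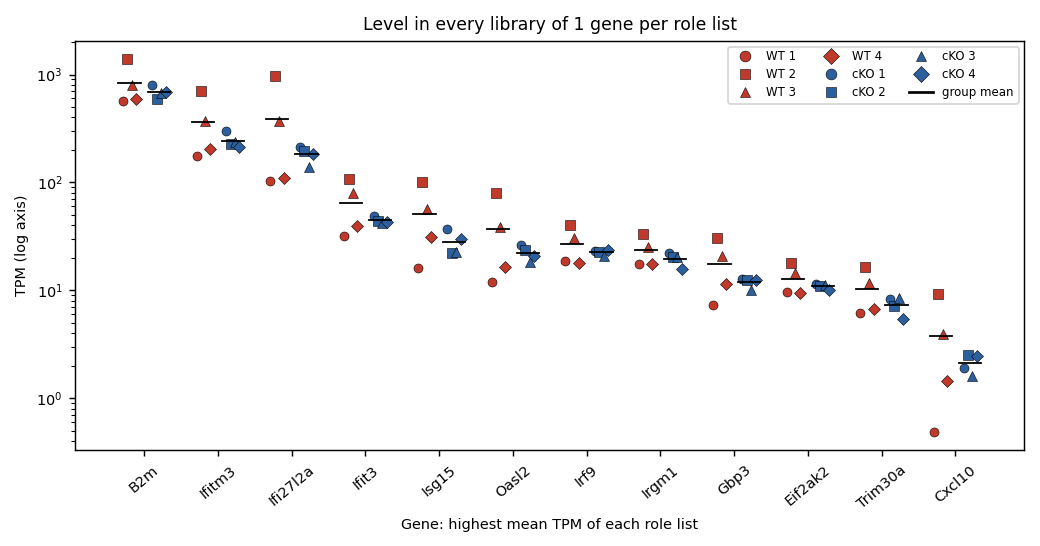
Each point is the TPM of 1 library on a log axis, for the gene with the highest mean TPM in each of the 12 role lists, with WT in red, cKO in blue and a line at each group mean. In each gene the red square of WT replicate 2 is at the top and the red triangle of WT replicate 3 comes next, and the blue cKO points stay closer together than the red ones.

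Rsad2, the radical enzyme viperin that makes a chain-terminating nucleotide, stood at 4.6, 14.97, 9.2 and 5.4 TPM in WT and 6.41, 4.39, 6.7 and 3.39 TPM in cKO. Its lowest level was in cKO replicate 4, not in a WT library. Trim30a stood at 6.14, 16.6, 11.7 and 6.74 TPM in WT and 8.38, 7.14, 8.52 and 5.47 TPM in cKO, also lowest in cKO replicate 4. Parp14, an ADP-ribosyltransferase, stood at 2.41, 7.88, 5.23 and 2.61 TPM in WT and 2.99, 2.91, 2.86 and 2.63 TPM in cKO. These 3 genes kept a lower fitted level in cKO without WT replicate 2, with log2 fold changes of −0.29 ± 0.277, −0.14 ± 0.227 and −0.25 ± 0.241 (SE), none past the threshold.

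The small interferon-inducible proteins were among the 14 of 42 members with a fitted level above WT in that fit. This sign was not particular to them. Ifi27l2a stood at 103, 962, 369.7 and 111 TPM in WT and 215, 195, 139 and 184 TPM in cKO, and WT replicates 1 and 4 lay below every cKO library. Its neighbour Ifi27, whose annotated span on chromosome 12 overlaps that of Ifi27l2a, stood at 139, 313, 201 and 149.6 TPM in WT and 179, 191, 160.2 and 188 TPM in cKO. Xaf1, which promotes apoptosis, stood at 9.51, 31.8, 18.3 and 9.29 TPM in WT and 13.5, 12.3, 12.1 and 11.6 TPM in cKO. Without WT replicate 2 all 4 genes of this list, Ifi44 included, had a fitted level above WT, among them Ifi27 at 0.16 ± 0.118 and Ifi27l2a at 0.03 ± 0.382 (SE), none past the threshold. With all libraries the values were −0.22 ± 0.278 and −1.18 ± 0.719.

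Guanylate-binding proteins, large GTPases that attack the membranes around pathogens and are strongly induced by interferon gamma, lie together on chromosome 3. Gbp2 stood at 5.22, 23.8, 13.7 and 6.26 TPM in WT and 8.23, 8.12, 7.18 and 7.51 TPM in cKO, and Gbp3 at 7.34, 30.8, 20.8 and 11.4 TPM in WT and 12.7, 12.3, 10.2 and 12.5 TPM in cKO. In Gbp2 the SD in WT was 17.1 times that in cKO, the highest such ratio of the 42. Gbp7 stood at 3.69, 10.5, 7.47 and 3.74 TPM in WT and 4.5, 4.87, 4.27 and 3.21 TPM in cKO. Gbp5, at 2.34, 5.53, 4.1 and 2.09 TPM in WT and 2.76, 1.89, 2.3 and 2.24 TPM in cKO, had a log2 fold change of −0.67 ± 0.346 (SE) with all libraries and −0.29 ± 0.249 without WT replicate 2. All 4 genes kept a lower fitted level in the smaller fit, none past the threshold.

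Immunity-related GTPases act on the vacuoles of pathogens in mice. Irgm1, their regulator, stood at 17.6, 33.3, 25.4 and 17.6 TPM in WT and 21.96, 20.6, 20.4 and 15.8 TPM in cKO, lowest in cKO replicate 4. Igtp stood at 7.6, 34.1, 20.01 and 8.15 TPM in WT and 12.2, 12.8, 9.24 and 10.7 TPM in cKO, and Iigp1 at 2.71, 12.5, 7.21 and 2.83 TPM in WT and 4.01, 4.02, 3.12 and 3.53 TPM in cKO. Both had WT replicates 1 and 4 below all cKO libraries. Igtp shares an exon stretch of 162 bases with Irgm2, so their reads could not be fully told apart.

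The genes of antigen presentation by MHC class I included the most abundant member. B2m, the light chain of every class I molecule, stood at 571, 1383, 803 and 592 TPM in WT and 792, 589, 674 and 684 TPM in cKO. The heavy chain H2-K1 stood at 90.3, 244, 150.4 and 91.3 TPM in WT and 127, 97.2, 104 and 95.1 TPM in cKO, and H2-D1 at 174, 389, 228 and 175 TPM in WT and 209, 166, 186 and 168 TPM in cKO. Heavy chains share sequence with other class I genes (6.87% and 13.9% of runs of 50 bases), so a part of their reads was shared by estimation. Group levels of B2m were 837 ± 379 TPM in WT and 685 ± 83.3 TPM in cKO (SD, n = 4 each), with a log2 fold change of −0.35 ± 0.312 (SE) with all libraries and 0.09 ± 0.123 without WT replicate 2.

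Psmb8 and Psmb9, the catalytic subunits that turn the proteasome into the immunoproteasome, had 3.26 and 3.13 times the median level in WT replicate 2. Tap1, which carries the peptides into the endoplasmic reticulum, had 2.7 times. Exons of Tap1 and Psmb9 overlap by 212 bases on opposite strands, and without a stated strand setting the reads of that stretch cannot be told apart.

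Cxcl10, a chemokine that draws T cells, was close to the floor in 1 library. It stood at 0.49, 9.28, 3.92 and 1.43 TPM in WT and 1.89, 2.53, 1.62 and 2.45 TPM in cKO, and WT replicate 1 held 3 counts. Its log2 fold change was −0.93 ± 0.754 (SE) with all libraries and 0.14 ± 0.537 without WT replicate 2, the widest error of the 42.

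Other interferon-induced genes that are not among the members showed a like pattern. They too were chosen with earlier results of these data known. Some share sequence with members, as Oas1g does with Oas1a, so they are not an independent check. Of 50 tested genes of that kind 46 were highest in WT replicate 2 in TPM and 49 in CPM, and 38 had WT replicate 3 second. None was called. With all libraries 48 had a lower fitted level in cKO, and 34 without WT replicate 2, and their medians were −0.53 and −0.06. The most abundant were Ly6a at 137, 190.3, 140.2 and 78.96 TPM in WT and 129, 94.7, 111 and 113 TPM in cKO and Ly6e at 107, 161, 138 and 108 TPM in WT and 134, 109, 123 and 114 TPM in cKO, both membrane-anchored surface proteins. Other genes of class I presentation were highest in WT replicate 2 for 13 of 14 (27.3% of all genes). Psme2, a subunit of the proteasome activator PA28, stood at 87.2, 218, 127 and 92.00 TPM in WT and 106, 109, 89.7 and 96.2 TPM in cKO, and Calr, a chaperone of the endoplasmic reticulum, at 419, 407, 402 and 449 TPM in WT and 472, 426, 441 and 462 TPM in cKO. Calr was the gene that did not have its highest level there.

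The machinery upstream of these genes stood closer to its usual level in WT replicate 2. The interferon ligands Ifne, Ifnz and Ifng had at most 1 count in any library and were not tested, and other ligands were not analysed here. All 6 receptor genes were highest in WT replicate 2 (27.3% of all genes). Their list median there was 0.35 on the log2 scale above the gene's own median, against 1.39 for the members. Ifngr1 stood at 35.2, 48.7, 39.9 and 37.8 TPM in WT and 37.02, 36.01, 36.6 and 36.7 TPM in cKO, and Ifngr2 at 40.9, 49.6, 47.1 and 46.04 TPM in WT and 42.2, 45.5, 42.3 and 47.2 TPM in cKO. Transducers had 5 of 11 genes highest in WT replicate 2 (27.3% of all genes). The kinase Jak1 stood at 99.1, 99.4, 105 and 95.7 TPM in WT and 97.7, 106, 104 and 103 TPM in cKO, and Stat3 at 41.4, 78.8, 55.5 and 46.5 TPM in WT and 44.7, 51.7, 45.1 and 45.2 TPM in cKO.

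Sensors upstream of interferon production had 7 of 14 genes highest in WT replicate 2, and negative regulators 3 of 9 (27.3% of all genes). Tbk1, the kinase that activates Irf3, stood at 40.6, 38.6, 37.4 and 39.2 TPM in WT and 36.8, 40.8, 40.9 and 38.1 TPM in cKO, and the adaptor Traf3 at 20.1, 12.6, 21.98 and 25.7 TPM in WT and 19.2, 20.5, 18.6 and 25.8 TPM in cKO. Adar, which edits double-stranded RNA, stood at 59.3, 41.7, 61.1 and 61.1 TPM in WT and 59.4, 57.6, 67.05 and 59.02 TPM in cKO, and the phosphatase Ptpn2 at 24.7, 23.1, 25.9 and 22.5 TPM in WT and 23.3, 23.6, 27.6 and 20.1 TPM in cKO. With all libraries none of the receptor, transducer, sensor or regulator genes was called (0.0% of all genes). The medians of these lists were −0.19, −0.0038, −0.14 and −0.0025.

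Markers of several cell types were also highest in WT replicate 2, as were 27.3% of all tested genes in TPM. In bulk tissue a change in the number of cells of a type cannot be told apart from a change in RNA per cell. Microglia markers, which would mark the resident macrophages of the spinal cord, were highest in WT replicate 2 for 4 of 14, with summed levels of 623 to 666 TPM in WT and 657 to 691 TPM in cKO. Their defining genes Tmem119, P2ry12 and Cx3cr1 were at 15.1, 18.9 and 12.8 TPM in WT replicate 2, each below all other libraries. The 4 microglia markers that were highest there were C1qa, C1qb, Aif1 and Olfml3, at 114, 137, 20.1 and 53.6 TPM. The median of the 14 in that library was −0.42 on the log2 scale, so the list was not uniform. Markers of macrophages outside the brain parenchyma were highest there for 9 of 9, at 157 TPM summed against 38.8 to 72.1 TPM in the other libraries. Lymphocyte and granulocyte markers were highest there for 10 of 10 tested, and summed to 5114 to 17460.0 TPM in WT and 3618 to 9296 TPM in cKO. Most of that sum was S100a8 and S100a9 of granulocytes. S100a8 stood at 3391, 10640.0, 4592 and 3105 TPM in WT and 4175, 2622, 5672 and 2240.0 TPM in cKO, while the T cell gene Cd3e was at 0 in 2 libraries and at most 0.35 TPM, and Cd79a of B cells lay between 2.16 and 8.42 TPM.

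Nociceptor markers were highest in WT replicate 2 for 14 of 14 (27.3% of all genes). They summed to 412 to 3830.0 TPM in WT and 354 to 1132 TPM in cKO. Fibroblast markers were highest there for 12 of 15, with a list median of 1.36 in that library on the log2 scale, against 1.39 for the interferon genes. Dcn, a matrix proteoglycan, was at 1504 TPM in WT replicate 2 against 224 to 592 TPM elsewhere. Their sums, of 3143 to 4375 TPM in WT and 2848 to 3713 TPM in cKO, were mostly Ptgds, a prostaglandin synthase, which was at 1526 TPM in WT replicate 2 against 2041 to 3153 TPM elsewhere. Red blood cell genes were highest there for 7 of 7, Schwann cell markers for 9 of 11, general sensory neuron markers for 5 of 5, satellite glia markers for 3 of 7 and dendritic cell markers for 2 of 4. Endothelial markers were highest there for 6 of 14, at 290 to 381 TPM in WT and 236 to 375 TPM in cKO. Oligodendrocyte, astrocyte and spinal neuron markers were highest there for 0 of 10, 0 of 9 and 0 of 13. Their summed levels were lowest in WT replicate 2, at 3253, 1043 and 562 TPM. In the other libraries these sums were 7687 to 13260, 2342 to 3241 and 932 to 1068 TPM. The part of any of these cell types in the levels of the interferon genes was not tested.

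**Figure D4:**
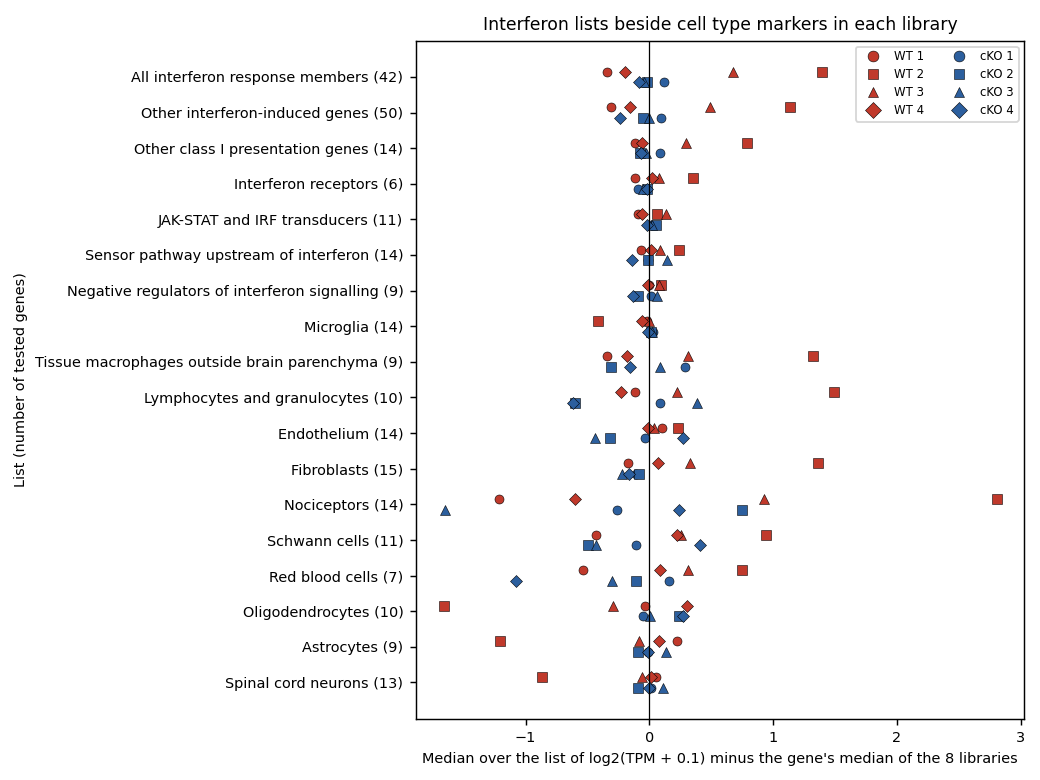
Each row is a gene list with its number of tested genes, and each point is 1 library, placed at the median over the list of log2(TPM + 0.1) minus the gene's median of the 8 libraries. For the 42 members WT replicate 2 lies at 1.39 and WT replicate 3 at 0.67, with the cKO libraries between −0.08 and 0.12 and WT replicates 1 and 4 at −0.34 and −0.20.

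Outside WT replicate 2 these lists ran alike in some libraries and apart in others. WT replicate 3 was highest of the other 7 libraries for all 42 interferon genes (20.9% of all genes). The list medians of that library were 0.67 for the interferon genes, 0.92 for nociceptors, 0.31 for macrophages, 0.32 for fibroblasts and 0.22 for lymphocytes and granulocytes. WT replicate 3 was second after WT replicate 2 for 11 of 14 nociceptor, 6 of 7 red blood cell, 9 of 15 fibroblast, 5 of 9 macrophage and 2 of 10 lymphocyte and granulocyte genes. Of all tested genes, 11.2% had this order. In WT replicates 1 and 4 the medians were −0.34 and −0.20 for the interferon genes, −0.34 and −0.18 for macrophages, −1.21 and −0.60 for nociceptors, −0.12 and −0.23 for lymphocytes and granulocytes and −0.18 and 0.07 for fibroblasts. So the low WT libraries were below the usual level in each of these lists except for fibroblasts in WT replicate 4. In cKO replicate 2 the macrophage median was −0.31, and in cKO replicate 1 it was 0.29. In cKO replicate 3, nociceptor markers had a median of −1.65, lymphocyte and granulocyte markers 0.38 and interferon genes −0.04. In cKO replicate 2 these 3 lists stood at 0.75, −0.60 and −0.02.

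Members with and without each motif overlapped in size. The 17 genes with an ISRE core had a median of 2.50 times the other libraries in WT replicate 2, with a range from 1.63 to 6.20, and the 16 without it had 2.74 times, with a range from 1.61 to 3.86. The 9 genes with a GAS core had a median of 2.78 times and the 24 without it 2.67 times. These are descriptions of the genes with a window, and 9 members, among them Ifi27l2a and Zbp1, had none.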

How the data were processed

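RNA was measured in 8 libraries, 4 per genotype label. The authors deposited 1 table with estimated counts per gene and TPM per library, per the file headers, and 16 further per-sample columns of other units were not used. The submitters' processing notes name HISAT2 2.2.1, Bowtie2 2.4.5, RSEM 1.3.1, GRCm38 and mm10, with no role or order. The deposited estimated counts (10.3 to 11% of values not whole) were rounded and tested with edgeR 4.0.16 (filterByExpr, TMM, glmQLFit and glmQLFTest, R 4.3.3), with Benjamini-Hochberg adjustment over all tested genes and a threshold of 0.05. DESeq2 1.42.0 and limma 3.58.1 were alternatives, with other scalings, no filter, a replicate block and each library left out. The fit was also run on simulated counts with the same spread for all genes and no outlying library. That run does not show how the fit performs with a library like WT replicate 2. Deviations used log2(TPM + 0.1). Nothing in the labels says more of the replicates than that they are separate biological samples, so p-values measure the spread between these samples. The members and lists were chosen with earlier results of these data known. Named with full values were the 3 members of highest mean TPM in each role list, the 3 of lowest unadjusted p in each fit, members with near-identical copies and the 2 genes of highest mean TPM in each pathway list. The other members are named for completeness, and markers of cell types were chosen from the lists after their values were seen. Promoter windows and transcript runs of 50 bases came from RefSeq and the reference annotation.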

Additional observations from a re-analysis of the deposited data

Results flagged for a closer look

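Among the 4 cKO libraries, 2 values of named genes stood far from the other 3 libraries by Dixon's test, of 68 groups of 4 looked at. Chance flags about 1 in 20 groups. Oas2 was at 3.33 TPM in cKO replicate 3, the highest of its group. Gbp3 was at 10.16 TPM in cKO replicate 3, the lowest of its group.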

How the results depend on the processing

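No member passed the adjusted threshold under any of the alternatives run, and the count of all genes that passed went from 0 to 1 with DESeq2 (Lztfl1) and to 1 without WT replicate 2 (Capn11). The cause was not tested. The median log2 fold change of the members was −0.70 to −0.36 under other scalings, tools, units and filters, and −0.87 to −0.07 with 1 library left out, the last without WT replicate 2. The number of members lower in cKO was 42 in each of these except without WT replicate 2, where it was 28. In that fit 11 named members had a log2 fold change above 0, and with each library left out in turn the values were −0.48 to 0.022 for Irf9, −0.78 to 0.072 for Dhx58, −1.33 to 0.048 for Zbp1, −0.46 to 0.045 for Ifit3b, −1.09 to 0.021 for Oasl2, −0.89 to 0.017 for Ifitm3, −0.37 to 0.16 for Ifi27, −1.49 to 0.027 for Ifi27l2a, −0.58 to 0.078 for Xaf1, −0.50 to 0.095 for B2m and −1.29 to 0.14 for Cxcl10, the highest each time without WT replicate 2. With the replicate number as a block the median was −0.43, with 42 members lower and 0 genes called. Samples with the same number had correlations of 0.008, 0.045, −0.037 and 0.253 in their deviations from group means. These were not set against samples of different number, so they cannot decide whether the numbers mark pairs or sequencing batches. The labels state no pairs, and the main fit used none. Counting depth limits Cxcl10 most, with 3 counts in its lowest library.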
